A study of Mus musculus with 9 samples.

Results

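Bone morphogenetic protein (BMP) ligands, the related ligand Gdf11, the inhibitory Smads and the Id factors were followed in retinas from E12.5 embryos of the CD-1 mouse stock. The set was defined by gene symbol and holds 10 genes, Id1, Id2, Id3, Id4, Bmp4, Bmp7, Smad6, Smad7, Gdf11 and Mstn. Of these, 9 were measured among the 12388 gene symbols of the study, 8 of them in both comparisons. Bmp4 was measured in the mutant and heterozygote comparison alone, and Mstn, the closest relative of Gdf11, was listed in neither comparison. The study compared 3 groups of 3 samples of total RNA, which differ in the alleles at Neurog2, a gene for a proneural transcription factor. Knock-in retinas carried the GFP allele of Neurog2 on one chromosome and a knock-in allele on the other. Mutant retinas were Neurog2GFP/GFP and heterozygote retinas Neurog2GFP/+, so every group, the heterozygote included, carried at least one GFP allele and no group was wild type. Per the labels the optic cups of GFP-positive embryos were collected in pairs before dissociation, and no cell sort is named. The files give a pooled RPKM value (reads scaled by transcript length and by mapped reads) for each group and no values per sample, so the spread between replicates enters only through the authors' own Cuffdiff test, and the depth per sample is unknown. A call below is a q of 0.05 or less in that test.

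BMPs bind receptor pairs that phosphorylate Smad1, Smad5 and Smad9, and the Id genes are among the best known direct targets of these Smads. Id proteins have a helix-loop-helix domain but no DNA-binding region. They pair with E proteins and so keep proneural factors such as Neurog2 from forming active dimers. Smad6 and Smad7 are inhibitory Smads that the pathway itself induces. In the eye Bmp4 marks the dorsal retina and Bmp7 is needed for early eye and lens formation. Gdf11 signals through activin-type receptors and Smad2 and Smad3, and in the mouse retina it limits how long progenitors can produce ganglion cells.

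The Id genes are close relatives, and the level assigned to each depends on reads being told apart. The 90 bases in which their coding sequences are most alike are shown for that reason, with the bases that are identical in all 4 genes in capitals. Each stretch lies in the coding part of exon 1 of its gene (GENCODE M21 transcripts on mm10).
Id1 (chr2:152736557-152736646, plus strand): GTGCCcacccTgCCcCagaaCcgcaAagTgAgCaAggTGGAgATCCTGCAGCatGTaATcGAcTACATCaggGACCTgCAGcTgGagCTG
Id2 (chr12:25095774-25095863, minus strand): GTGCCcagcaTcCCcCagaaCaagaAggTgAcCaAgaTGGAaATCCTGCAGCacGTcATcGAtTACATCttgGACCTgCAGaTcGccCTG
Id3 (chr4:136144041-136144130, plus strand): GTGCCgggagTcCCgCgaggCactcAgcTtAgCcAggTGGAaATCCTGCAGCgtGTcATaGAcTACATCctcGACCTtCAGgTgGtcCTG
Id4 (chr13:48261732-48261821, plus strand): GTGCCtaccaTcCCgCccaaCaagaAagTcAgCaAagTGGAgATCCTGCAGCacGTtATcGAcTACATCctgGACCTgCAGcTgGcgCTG
In this stretch 54 of 90 bases were shared by all 4 genes. Over the whole annotated transcripts the longest identical run between any pair was 19 bases, between Id2 and Id3. Between Gdf11 and Mstn it was 12 bases.

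The Neurog2 row was examined first as a check of the labels. Neurog2 was at 112 RPKM in knock-in and 35.5 RPKM in mutant retinas, and at 36.2 RPKM in mutant and 30.2 RPKM in heterozygote retinas. A lower value in the mutant was thus not seen, and the row does not bear the labels out. Coding and untranslated sequence are not distinguished in the tables, so the row does not check the loss of the coding part. The groups are therefore called knock-in-labelled and mutant-labelled. The groups also differed in other measured respects. Xist, expressed from the inactive X chromosome, was at 174 RPKM in knock-in-labelled, 496 RPKM (505 RPKM in the other table) in mutant-labelled and 184 RPKM in heterozygote retinas. The Y-linked gene Kdm5d was at 19.3 RPKM in knock-in-labelled and 12.8 RPKM in heterozygote retinas and listed at 0 in mutant-labelled retinas. Neither gene was called in either comparison by the authors' Cuffdiff test. In mutant-labelled against heterozygote retinas q was 0.477 for Xist and 0.993 for Kdm5d. In knock-in-labelled against mutant-labelled retinas q was 0.568 for Xist and 0.783 for Kdm5d. The part of embryo sex in the results below was not tested. The sample titles carry the number 311 for knock-in-labelled samples and 466 for the mutant-labelled and heterozygote samples. Whether a number marks a litter is not stated; such a difference and the knock-in label cannot be told apart.

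The Id genes held the largest share of the signal in the set. Id3 was the most abundant, then Id1, then Id2, with Id4 far below them, and this order held in all 3 groups. Id3 stood at 124 RPKM in knock-in-labelled, 155 RPKM in mutant-labelled (158 RPKM in the table shared with the heterozygote) and 145 RPKM in heterozygote retinas. Its transcript was more abundant than 97.6% of the transcripts in the knock-in comparison. Id4 stood at 2.95, 2.83 (2.88) and 3.64 RPKM in the same groups. Id1 to Id4 summed to 293 RPKM in knock-in-labelled, 349 RPKM (356 RPKM) in mutant-labelled and 310 RPKM in heterozygote retinas. Id3 made up 42.4%, 44.4% and 46.6% of this sum, and Id4 1.01%, 0.81% and 1.17% of it. Id1 and Id2 were close to each other, 83.7 and 81.8 RPKM in knock-in-labelled retinas, and without values per sample their order there cannot be set against a spread.

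**Figure D1:**
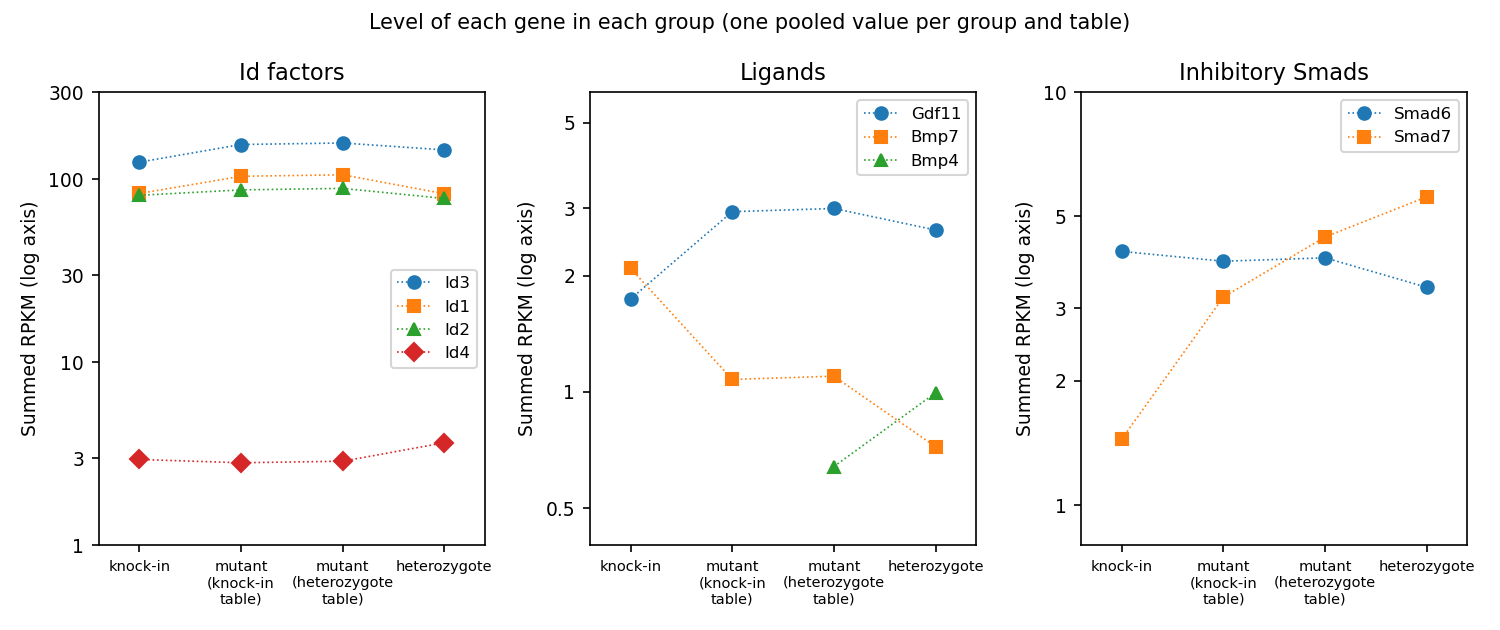
RPKM summed over the listed transcripts of each gene (log axis) in knock-in, mutant and heterozygote retinas, with the mutant value of each table shown apart; each point is the authors' pooled value of 3 samples and has no error bar, and dotted lines join the points of a gene. Id3, Id1 and Id2 sit between 78.6 and 158 RPKM, and Bmp7 lies above Gdf11 in the knock-in group alone.

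Mutant-labelled retinas were set against heterozygote ones to see what changes with a second GFP allele in place of the remaining + allele of Neurog2. No gene of the set passed the test there. The 9 measured genes had 13 transcripts, none of them called, where 0.608% of all 27311 transcripts were called (1.34% of 12247 genes). Summed RPKM was higher in mutant-labelled retinas for 6 genes, Id1, Id2, Id3, Gdf11, Bmp7 and Smad6, and lower for Id4, Bmp4 and Smad7. The medians were 0.18 on the log2 scale for the 9 genes and 0.03 for all genes. Retinal progenitor markers also had higher summed RPKM in mutant-labelled retinas, 9 of 9, with a median log2 ratio of 0.33 and none called (2925 RPKM in mutant-labelled and 2389 RPKM in heterozygote retinas), and their part in these values was not tested.

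Id1 was at 106 RPKM in mutant-labelled and 83.4 RPKM in heterozygote retinas, a log2 ratio of 0.34 (p = 0.0405, q = 0.910 in the authors' deposited table). Bmp7 was at 1.10 and 0.721 RPKM, a log2 ratio of 0.61 (p = 0.0439, q = 0.933 in the authors' deposited table). Every row of this comparison reaches at least 0.906 RPKM in one group, so Bmp7 was listed only through its mutant-labelled value. Id1 and Bmp7 were the only genes of the set with an unadjusted p under 0.05, 2 of 9, where 10.9% of all genes had such a transcript. At a q of 0.1 or less none of the set would be called, and 1.69% of all genes would. For Id2, 89.2 RPKM in mutant-labelled against 78.6 RPKM in heterozygote retinas, the 95% interval of the log2 ratio implied by the deposited p ran from -0.11 to 0.47. For Id3, 158 against 145 RPKM, it ran from -0.16 to 0.42. Among transcripts with a mean of 50 to 200 RPKM, the range of these Id genes, the smallest ratio called in this comparison was 0.52 in size.

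Gdf11 was at 2.99 RPKM in mutant-labelled and 2.63 RPKM in heterozygote retinas (log2 ratio 0.19, implied interval -0.21 to 0.58). Markers of ganglion cells and neurons, the cells that release Gdf11 in the mouse retina, were called lower in the same comparison for 7 of 10 genes, and the list had a median log2 ratio of -1.03. In knock-in-labelled against mutant-labelled retinas the same 10 markers all had higher summed RPKM, 2 were called (Pou4f2 and Rbpms) and the median was 0.41, while the Gdf11 ratio there was -0.75. The part of ganglion cell number in the Gdf11 values was not tested. Bmp4 was at 0.640 and 0.995 RPKM in mutant-labelled and heterozygote retinas. That is at the edge of what was tabulated, since every row of this table reaches at least 0.906 RPKM in one group, and its implied interval was wide, -1.93 to 0.66. Smad6 was at 3.97 and 3.37 RPKM (0.24, implied interval -0.34 to 0.82), and Id4 at 2.88 and 3.64 RPKM (-0.33, implied interval -0.83 to 0.16).

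Knock-in-labelled retinas were set against mutant-labelled ones to see what the knock-in allele changes in place of a GFP allele. The values of Bmp7 were higher and those of Gdf11 lower in the knock-in-labelled group, and neither gene passed the test. The 8 measured genes had 9 transcripts and none was called, where 0.756% of all 26586 transcripts were called (1.67% of 11989 genes). Of the 8 genes, 4 had an unadjusted p under 0.05 (Bmp7, Gdf11, Id3 and Id1), where 14.6% of all genes had such a transcript. Summed RPKM was higher for Bmp7, Id4 and Smad6 and lower for Id1, Id2, Id3, Gdf11 and Smad7. The medians were -0.20 on the log2 scale for the 8 genes and -0.002 for all genes.

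Gdf11 (chr10:128882295-128891718, minus strand) was at 1.74 RPKM in knock-in-labelled and 2.94 RPKM in mutant-labelled retinas, which is 0.594 times the mutant-labelled level. Its log2 ratio was -0.75 with an implied interval of -1.19 to -0.32 (p = 0.0007, q = 0.0736 in the authors' deposited table). Bmp7 (chr2:172868012-172940321, minus strand) was at 2.09 and 1.08 RPKM in the same groups, 1.94-fold higher. Its log2 ratio was 0.96 with an implied interval of 0.41 to 1.50 (p = 0.0006, q = 0.0676 in the authors' deposited table). Errors of these log2 ratios from the test statistic were larger, 0.374 for Gdf11 and 0.444 for Bmp7, against 0.222 and 0.279 from p. The largest p called in this table was 0.00035. Calls at the level of these ligands were rare: of 12955 transcripts with a mean of 0.5 to 5 RPKM, 0.347% were called, the smallest of them with a ratio of 0.68 in size. At a q of 0.1 or less both ligands would be called, as would 2.54% of all genes.

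The relation of the ligands to each other therefore differed between the groups. Bmp7 stood at 1.20 times the RPKM of Gdf11 in knock-in-labelled retinas, at 0.367 times in mutant-labelled and at 0.274 times in heterozygote retinas. No test of this ratio can be made from pooled values.

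**Figure D2:**
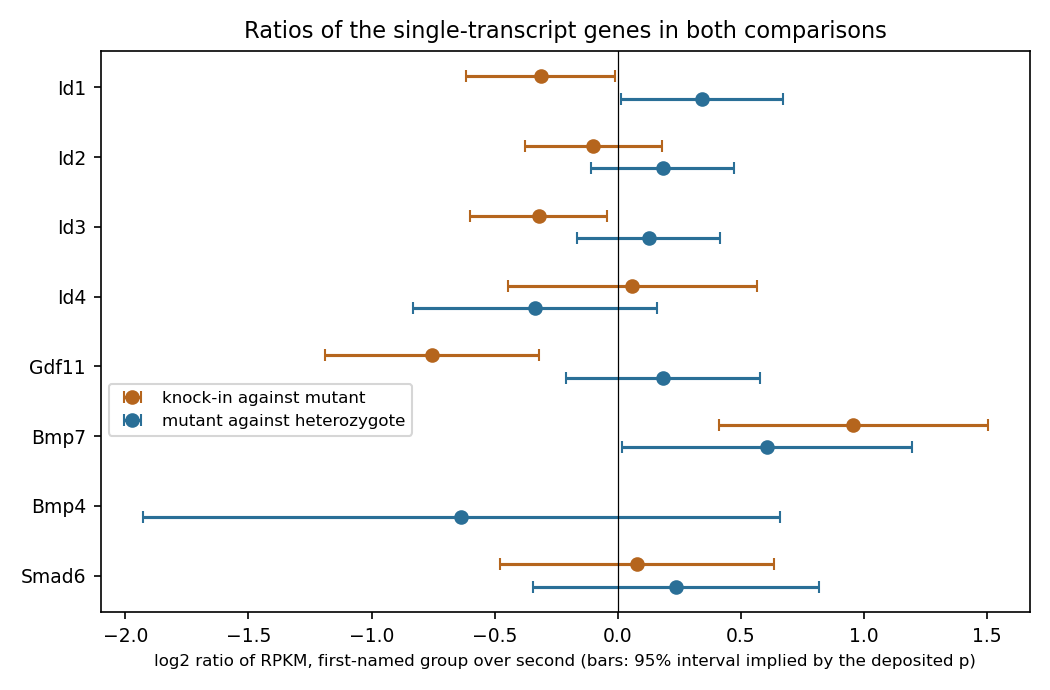
log2 ratio of RPKM for each gene with a lone transcript, knock-in over mutant in orange and mutant over heterozygote in blue; bars are 95% intervals implied by the deposited p. The bars of Bmp7 and Gdf11 in the knock-in comparison lie farthest from 0, at 0.41 to 1.50 and at -1.19 to -0.32, and neither passed the adjusted threshold. Bars from the test statistic would be about 1.73 times wider.

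Id1 and Id3 were lower in value in knock-in-labelled retinas by nearly the same factor. Id3 was at 124 RPKM in knock-in-labelled and 155 RPKM in mutant-labelled retinas, 0.801 times the mutant-labelled level (log2 ratio -0.32; p = 0.024, q = 0.529 in the authors' deposited table). Id1 was at 83.7 and 104 RPKM, 0.806 times the mutant-labelled level (log2 ratio -0.31; p = 0.044, q = 0.679 in the authors' deposited table). The ratio of Id3 to Id1 was thus 1.48 in knock-in-labelled and 1.49 in mutant-labelled retinas, against 1.74 in heterozygote retinas. Id2 was at 81.8 and 87.5 RPKM in knock-in-labelled and mutant-labelled retinas, with an implied interval of -0.38 to 0.18. The smallest ratio called among transcripts of 50 to 200 RPKM in this comparison was 0.51 in size, above the ratios of all 3 of these Id genes. Id4 (2.95 and 2.83 RPKM) and Smad6 (4.11 and 3.90 RPKM) had ratios of 0.06 and 0.08, with implied intervals of -0.45 to 0.57 and -0.48 to 0.63.

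Smad7 could not be followed as a gene. It had 5 transcripts in the mutant and heterozygote table and 2 in the other. In the first, 2 transcripts had higher values in mutant-labelled retinas (log2 ratios 2.27 and 1.96) and 3 had lower ones (-1.27, -2.31 and -2.56), and none had a p below 0.201 in the authors' deposited table. Summed, Smad7 was at 4.46 RPKM in mutant-labelled and 5.58 RPKM in heterozygote retinas. In the second, a transcript stood at 0.391 RPKM in knock-in-labelled and 2.07 RPKM in mutant-labelled retinas (p = 0.273 in the authors' deposited table) and another at 1.06 and 1.12 RPKM. The mutant-labelled sums of the tables, 4.46 and 3.19 RPKM, differ because the transcripts summed differ, while for the 7 other genes in both tables the mutant-labelled values differed by 0.03 on the log2 scale. A Smad7 ratio across tables would set different transcripts against each other and is not read here.

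**Figure D3:**
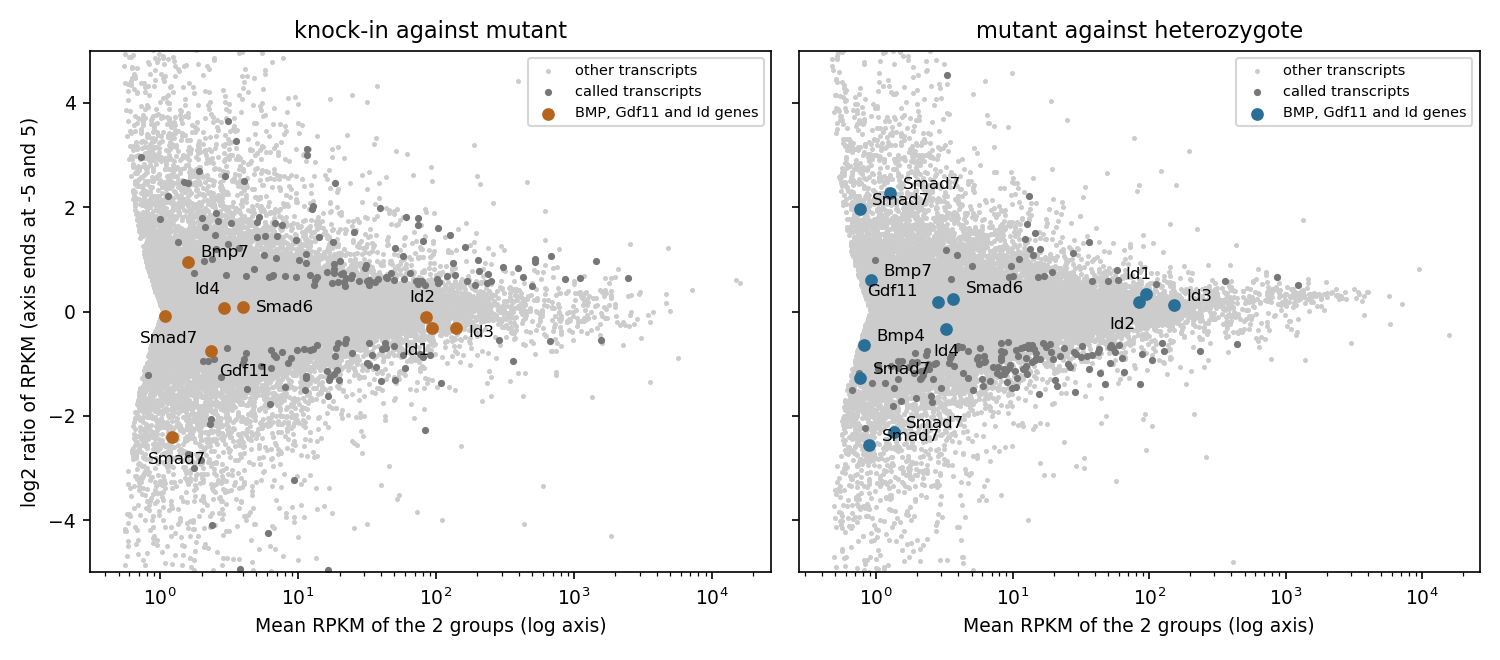
Mean RPKM of the compared groups (log axis) against the log2 ratio for every transcript with a value above 0 in both groups, called transcripts in dark grey and the genes of the set in colour with their names; transcripts beyond -5 and 5 are not drawn. Id1, Id2 and Id3 lie above 50 RPKM within 0.34 of a ratio of 0 in both panels, and the Smad7 transcripts lie near 1 RPKM with ratios from -2.56 to 2.27.

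Set across the tables, with no test available, Id1 and Id2 in knock-in-labelled retinas were near the heterozygote level. Id1 was at 83.7 RPKM in knock-in-labelled and 83.4 RPKM in heterozygote retinas, and Id2 at 81.8 and 78.6 RPKM. Bmp7 differed most, 2.09 against 0.721 RPKM, a log2 ratio of 1.54. Gdf11 was at 1.74 against 2.63 RPKM (-0.59), Id3 at 124 against 145 RPKM (-0.22), Id4 at 2.95 against 3.64 RPKM (-0.30) and Smad6 at 4.11 against 3.37 RPKM (0.29). Bmp7 was the gene of the set whose values lay in the order knock-in-labelled, mutant-labelled, heterozygote from high to low by more than 1.5-fold at each step. Its heterozygote value lay under the 0.906 RPKM that every row reaches in one group, so the direction of the second step was fixed by the listing. With a pseudocount of 1 RPKM the log2 ratios of the steps were 0.57 and 0.29. The comparisons share the mutant-labelled samples, so a high or low mutant-labelled value moves both ratios of a gene in opposite directions; the ratios of Id1, 0.34 and -0.31, share it.

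The other genes of the pathway were taken from 6 lists of ligands, receptors, extracellular antagonists, Smads, BMP-responsive factors and E proteins. Beside the set, the lists name 91 genes, of which 52 were measured in each comparison. In mutant-labelled against heterozygote retinas 1 of 52 was called, 1.92%, against 1.34% of all genes, and in knock-in-labelled against mutant-labelled retinas 3 of 52, 5.77%, against 1.67% of all genes. The medians of the 52 genes, 0.03 and -0.04, stood beside 0.03 and -0.002 for all genes.

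Rgmb, a membrane-anchored BMP co-receptor, was the call in the first comparison. It fell to 3.92 RPKM in mutant-labelled retinas, against 7.19 RPKM in heterozygote retinas, a log2 ratio of -0.87 with an implied interval of -1.30 to -0.45 (q = 0.0109 in the authors' deposited table). Its p in the authors' Cuffdiff test, 5e-05, is the smallest given in this comparison, so the width of its interval is set by that limit. Rgmb was at 3.85 RPKM in both knock-in-labelled and mutant-labelled retinas. Apart from Rgmb and Bambi, the receptor list held no call in either comparison. The type I receptor gene Bmpr1a was at 38.4 RPKM in mutant-labelled and 37.7 RPKM in heterozygote retinas, and at 42.0 and 37.7 RPKM in knock-in-labelled and mutant-labelled retinas. The activin receptor gene Acvr2b, through which Gdf11 signals, was at 16.3 and 16.8 RPKM and at 15.5 and 15.9 RPKM in the same pairs of groups.

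Among the calls of the second comparison, 2 were lower in knock-in-labelled retinas. Bambi encodes a decoy receptor that BMP signalling induces and that dampens it. It fell to 2.32 RPKM in knock-in-labelled retinas, against 3.77 RPKM in mutant-labelled retinas, a log2 ratio of -0.70 with an implied interval of -1.08 to -0.32 (q = 0.0413 in the authors' deposited table). Atoh8, a bHLH factor gene that responds to BMP in other cell types, fell to 4.74 RPKM, against 7.90 RPKM in mutant-labelled retinas, a log2 ratio of -0.74 with an implied interval of -1.13 to -0.34 (q = 0.0363 in the authors' deposited table). Against the heterozygote, Bambi in mutant-labelled retinas was at 3.84 and 3.18 RPKM and Atoh8 at 8.05 and 7.83 RPKM, neither of them called. Tgif1, a Smad corepressor gene, had a transcript that rose to 20.8 RPKM in knock-in-labelled retinas, against 7.69 RPKM in mutant-labelled retinas (q = 0.0182 in the authors' deposited table). Its 7 transcripts summed to 46.5 and 47.9 RPKM, so the gene as a whole had a ratio of -0.04.

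**Figure D4:**
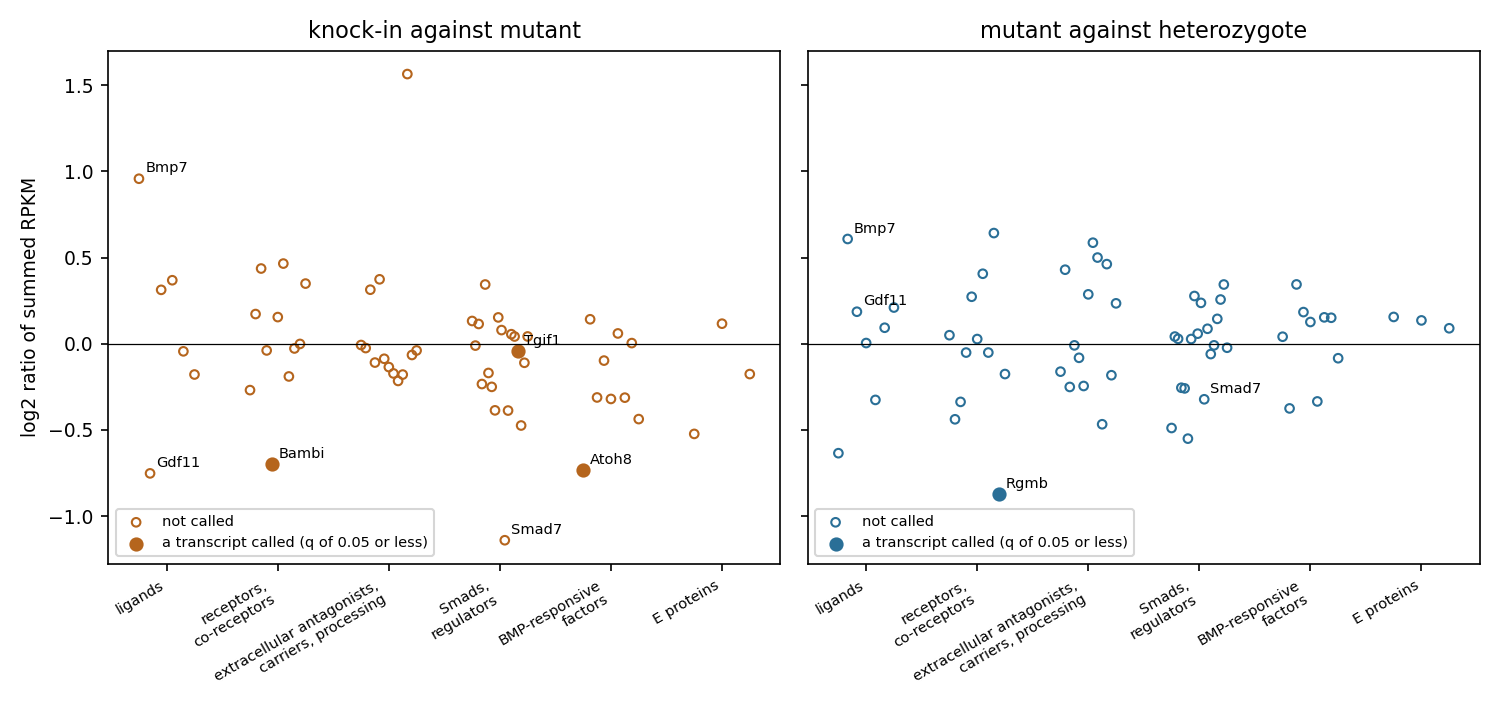
log2 ratio of summed RPKM for every measured gene of the 6 pathway lists, each point a gene, filled where a transcript was called; knock-in over mutant is on the left and mutant over heterozygote on the right. Bambi (-0.70) and Atoh8 (-0.74) are the filled points below 0 on the left and Rgmb (-0.87) on the right, while Tgif1 is filled near 0 because only a transcript of it was called.

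The list of BMP-responsive factors, which holds the Id genes, had 9 measured members. In knock-in-labelled retinas 6 of them had lower summed RPKM and 3 higher, with a median of -0.31 where all genes had -0.002; 1 was called, and 6 had a transcript with an unadjusted p under 0.05, where 14.6% of all genes did. Besides Atoh8, Id1 and Id3 these were Tbx5 and Tbx2, dorsal eye patterning genes, and Tbx3, named here after their values were seen. Tbx5 was at 8.42 and 11.4 RPKM and Tbx2 at 10.8 and 13.4 RPKM in knock-in-labelled and mutant-labelled retinas. Tbx3 summed to 27.8 and 27.7 RPKM. In mutant-labelled against heterozygote retinas the median of the list was 0.13 and none of the 9 was called. Hey1, its most abundant member outside the Id genes, was at 47.3 and 61.4 RPKM there (p = 0.0093, q = 0.446 in the authors' deposited table).

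No ligand of the lists was called. The most abundant outside the set was Tgfb2, at 29.5 and 30.4 RPKM in knock-in-labelled and mutant-labelled retinas and at 31.0 and 29.0 RPKM in mutant-labelled and heterozygote retinas. Gdf6, a BMP of the dorsal eye, was at 7.26 and 5.85 RPKM and at 5.96 and 5.94 RPKM in the same pairs. Of 13 measured antagonists, carriers and processing enzymes none was called in either comparison. The BMP-binding protein genes Fstl1 and Twsg1 were the most abundant of these, at 80.5 and 54.6 RPKM in knock-in-labelled against 62.2 and 56.2 RPKM in mutant-labelled retinas. Set against the heterozygote, they were at 63.4 and 57.2 RPKM in mutant-labelled and 67.1 and 48.7 RPKM in heterozygote retinas. Sostdc1, a BMP antagonist gene named after its value was seen, was at 1.87 RPKM in knock-in-labelled and 0.634 RPKM in mutant-labelled retinas. Its log2 ratio of 1.56 was the largest positive one of the lists (p = 0.0013, q = 0.107 in the authors' deposited table). Every row of that comparison reaches at least 1.04 RPKM in one group, so Sostdc1 was listed only through its knock-in-labelled value. That fixed its direction in advance, and Sostdc1 was not measured in the mutant and heterozygote comparison. No Smad gene was called, and Smad4, the shared partner, was at 76.9 and 101 RPKM in knock-in-labelled and mutant-labelled retinas and at 103 and 84.6 RPKM in mutant-labelled and heterozygote retinas, summed over several transcripts. Smad2, which carries Gdf11 signals, was at 58.4 RPKM in mutant-labelled and 85.5 RPKM in heterozygote retinas. The E protein genes Tcf3, Tcf4 and Tcf12, whose products the Id factors bind, were not called either, and Tcf12, the most abundant, was at 95.7 and 138 RPKM and at 140 and 126 RPKM in those pairs.

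Markers of tissues next to the retina moved with the knock-in label, beside the values of Bmp7, Sostdc1, Id1 and Id3, none of which was called. All 9 measured pigment epithelium markers were higher in knock-in-labelled retinas and 6 were called, summing to 92.7 RPKM against 19.2 RPKM in mutant-labelled retinas. Of 8 lens markers 7 were higher and 3 called (151 and 55.2 RPKM), and of 4 periocular mesenchyme markers all were higher and 1 called (30.3 and 18.0 RPKM). All 5 blood markers were higher and 2 called (126 and 33.8 RPKM). Both surface ectoderm markers were higher and Krt18 was called (16.8 and 10.2 RPKM), and all 3 optic stalk and ciliary margin markers were higher and Gja1 was called (28.8 and 20.3 RPKM). Within the retina, all 10 ganglion cell and neuron markers were higher and 2 called (525 and 381 RPKM), while 4 of 9 progenitor markers were higher and none was called (2775 and 2869 RPKM). The lens marker Foxe3 was listed at 0 in mutant-labelled and at 1.05 RPKM in knock-in-labelled retinas. Every row of this comparison reaches at least 1.04 RPKM in one group. A marker below that in mutant-labelled retinas was therefore listed only where its knock-in-labelled value was higher. The direction was fixed in this way for Mitf, Mlana, Slc45a2, Ttr, Tyrp1, Foxe3, Lim2, Twist1, Alas2, Hbb-bh1 and Hba-a1. Mitf is in both the pigment epithelium and the optic stalk and ciliary margin lists. Immediate early genes moved the other way, with 7 of 7 lower in knock-in-labelled retinas and 6 called (47.9 and 172 RPKM). Of these, Egr1, Fos and Fosb lay below 1.04 RPKM in knock-in-labelled retinas, so the same limit applies to their direction. The part of these tissues and cells and of the immediate early response in the values of Bmp7, Gdf11, Id1 and Id3 was not tested. Endothelial markers, of cells rich in Id1 and Id3, were measured for 2 of 8 genes and were at 24.0 RPKM in knock-in-labelled and 29.5 RPKM in mutant-labelled retinas, summed, with neither called. In mutant-labelled against heterozygote retinas none of the markers of these other tissues was called. In pooled tissue, fewer cells of a type and less RNA per cell cannot be told apart.

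The Gdf11 promoter is shown because Gdf11 had the lowest ratio of the genes with a lone transcript, with the E-box CAGCTG, a site type bound by proneural bHLH dimers, in capitals. The 250 bases before the start are from RefSeq on GRCm38.p6 (chr10:128891719-128891968, minus strand).
Gdf11: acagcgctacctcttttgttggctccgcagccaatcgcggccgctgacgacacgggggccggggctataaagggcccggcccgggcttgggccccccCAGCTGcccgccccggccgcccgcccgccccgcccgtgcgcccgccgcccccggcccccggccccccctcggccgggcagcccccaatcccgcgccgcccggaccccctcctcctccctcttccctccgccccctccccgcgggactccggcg
The E-box starts 153 bases before the annotated start. Promoters of 7 of the 10 genes were matched by symbol, and CAGCTG was found in those of Gdf11 and Id2, and in 13.0% of all 32851 promoters of the same length. The E-box CATATG was in none of the 7 and in 3.46% of all. The GC-rich Smad-type element GGCGCC was in those of Id2 and Id4 and in 9.59% of all promoters, and the Smad palindrome GTCTAGAC in none of the 7 and in 0.167% of all. Each motif reads the same on both strands, and a match describes letters in this window, not a bound site.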

How the data were processed

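Total RNA of E12.5 retinas was sequenced in 3 knock-in, 3 mutant and 3 heterozygote samples, grouped by the labelled genotypes. The submitters' processing notes name Bowtie2, Cufflinks, Cuffdiff and mm10, with no tool version. The authors deposited a table per comparison with RPKM per transcript and group, replicates pooled, and per the file headers a log2 fold change, a test statistic (a score) and a p-value and q-value. Log2 ratios were recomputed from RPKM with no pseudocount and differed from the deposited ones by at most 0.0041. Intervals implied by p divide a ratio by the normal quantile of its p; the test statistic would give errors about 1.73 times wider. A gene was called if any transcript had a q of 0.05 or less. Levels of a gene are sums over its transcripts. Rows without a usable symbol, 173 and 172, stayed out of gene counts. The adjustment was tested on simulated data. Tables were normalized separately, and genes were joined by symbol. Genes outside the set were named by a rule: in each comparison the called genes of a list or, where it had none, its 2 most abundant; no gene of the set was called, so none was sought by likeness of pattern. Bmpr1a, Acvr2b and Tcf3 were described in addition, chosen after their values were seen. The set and the lists were chosen with earlier results of these data known. Where labels do not say that replicates came from separate litters, p-values measure only the spread between these samples. Analyses used Python 3.11.15, pandas 2.3.3 and scipy 1.17.1. Some items are not reported here.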

Additional observations from a re-analysis of the deposited data

How the results depend on the processing

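The count of genes of the set called was 0 in both comparisons with the authors' Cuffdiff test. It was also 0 with adjustment over rows of at least 5 RPKM or with the most abundant transcript of each gene. The first of these settings tests only Id1, Id2 and Id3, since every transcript of the other genes, Bmp7 and Gdf11 included, lay under 5 RPKM. The second could not add a call, since no transcript of the set was called. At a q of 0.1 the count was 2 in knock-in over mutant (Bmp7 and Gdf11) and 0 in mutant over heterozygote. At an unadjusted p under 0.05 these counts were 4 and 2. For all pathway genes, the set included, the count of 3 for knock-in against mutant was 5 at a q of 0.1 and 14 at an unadjusted p under 0.05, and the count of 1 for mutant against heterozygote was 8 at that p. Bambi, under 5 RPKM, is not among the calls when rows under 5 RPKM are left out, since it is then not tested.

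All 91 ratios of the genes of the set recomputed under the alternatives kept their direction, but many of them could not have changed it. A pseudocount leaves the direction of a ratio as it is, and a choice among transcripts leaves a gene with a lone transcript unchanged. Of the 91 ratios, 4 moved by more than the error implied by p, all with a pseudocount of 1 RPKM, which shrinks low values. The log2 ratio of Bmp7 was then 0.57 in knock-in over mutant, 0.85 in knock-in over heterozygote and 0.29 in mutant over heterozygote, and that of Gdf11 was -0.52 in knock-in over mutant. Smad7 moved further but within its wide implied errors: with its most abundant transcript in place of the sum, the ratio was -2.40 rather than -1.14 in knock-in over mutant and -2.31 rather than -0.32 in mutant over heterozygote. The 91 ratios include Smad7 in knock-in over heterozygote across tables (-1.95, and -1.43 to -2.52 under the alternatives), which rests on different transcripts and is not read.

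No paired analysis was possible because the tables hold no values per sample and leave-one-out fits need them too.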
